A study of Mus musculus with 2 samples.

Results

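The 10 genes described here belong to bone morphogenetic protein (BMP) signalling and were measured in cells of the mouse coronal suture. Of these, 6 encode ligands, *Bmp2*, *Bmp3*, *Bmp4*, *Bmp5*, *Bmp6* and *Bmp7*, and 4 encode secreted antagonists, *Nog*, *Grem1*, *Chrdl1* and *Bmper*. They were chosen by name for their role in the pathway. The rule held no measured value, but earlier results of these data were known when the members were chosen. All 10 were among the 26514 genes that both gene lists hold under a unique symbol. All 10 also reached the minimum of 20 unique molecular identifiers (UMIs, each counting 1 captured RNA molecule) in the labelled cells of each library that 13086 genes reached.

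Both groups were wild-type C57/BL6 embryos, with no transgene and no treatment, and each was represented by 1 deposited matrix of droplet single-cell RNA sequencing. At E15.5, 10 coronal sutures were pooled, digested with Collagenase II and Dispase and freed of dead cells with a removal kit. At E17.5, 16 sutures of 2 litters were digested with Collagenase IV in 3 batches (10, 3 and 3 sutures) that were sorted separately by FACS, and the barcodes of that matrix carry suffixes 1, 2 and 3, which the deposited data do not tie to a batch. The libraries thus differ in stage, enzyme, cell selection, embryos, sequencing centre and depth, and in the gene list used for counting (31053 and 27998 genes), which cannot be told apart, and with 1 library a stage there is no test, so the report gives values and their counting error. Skin and brain had been peeled away, and some meninges with them.

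The study's own table gives a cluster label to 5335 cells at E15.5 (48607817 UMIs, median 8510 a cell) and to 6830 cells at E17.5 (92585034 UMIs, median 12302), in 15 clusters. The osteogenic clusters are OG1, the progenitors of the suture mesenchyme, OG2 and OG3, pre-osteoblasts near the suture and on bone surfaces farther away, OG4, the osteoblasts, and the proliferating PO1 and PO2. The ectocranial clusters lie above the bones: EC1 to EC3 are hypodermal, EC4 lies between hypodermis and bone, and LIG is ligament-like. The meningeal clusters run from MG1 and MG2, next to the bones, through MG3 to MG4, the arachnoid. All 14 layer markers checked, among them *Sp7*, *Dmp1*, *Pi16*, *Ly6a*, *Gjb6* and *Nppc*, were at least 2-fold higher in their layer in both libraries, and 15 of 19 pairs of marker and cluster passed the same limit, the exceptions being *Pthlh* in OG1, *Lef1* and *Inhba* in OG2 and *Scx* in LIG. Cluster labels were made from the same RNA, so differences between clusters are descriptions. The smallest clusters at E15.5 are MG1 with 28 cells and PO2 with 35. Between 5 and 19 labelled cells of E15.5 share their barcode sequence with each E17.5 suffix, and the suffixes share 5 to 13 with each other.

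BMPs are secreted dimers of the TGF-beta family that bind type I and type II receptor kinases, which phosphorylate SMAD1, SMAD5 and SMAD9. They are known for their power to induce bone, and BMP2 and BMP4 are the classical osteoinductive ligands, BMP5, BMP6 and BMP7 form a related subfamily, and BMP3 is a divergent member that opposes osteogenic BMP signalling. Noggin, gremlin 1, chordin-like 1 and BMPER bind the ligands outside the cell and keep them from their receptors, although BMPER can also promote signalling, and noggin is known for its presence in patent sutures.

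The promoters of *Bmp4* and *Grem1* are shown, a choice made after their values were seen, because *Bmp4* was higher at E17.5 in 11 of 15 clusters and *Grem1* lower in 10 and both are among the 5 members that the RefSeq table (GRCm38.p6) holds. Each line is the 250 bases before the start, 5′ to 3′, on the gene's minus strand, with the E-box letters CANNTG in capitals. E-boxes are the letters that bHLH factors such as TWIST1 and TCF12 read.
*Bmp4* promoter, chr14:46390670-46390919: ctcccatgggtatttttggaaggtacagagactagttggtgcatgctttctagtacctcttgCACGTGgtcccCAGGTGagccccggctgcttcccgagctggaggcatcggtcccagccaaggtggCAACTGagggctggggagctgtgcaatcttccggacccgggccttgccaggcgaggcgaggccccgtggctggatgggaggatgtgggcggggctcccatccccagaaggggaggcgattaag
*Grem1* promoter, chr2:113758649-113758898: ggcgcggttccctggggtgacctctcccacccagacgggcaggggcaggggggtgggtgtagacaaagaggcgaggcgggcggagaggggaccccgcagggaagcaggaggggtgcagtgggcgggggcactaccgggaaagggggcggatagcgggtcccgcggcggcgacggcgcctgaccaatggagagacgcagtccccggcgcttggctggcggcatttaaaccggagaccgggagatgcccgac
The *Bmp4* window holds 3 E-boxes, which begin 188, 177 and 123 bases before the start, and the *Grem1* window holds 0. Of all 32851 promoters of the table, read over the same 250 bases, 66.2% hold at least 1 E-box (the letters read alike on both strands) and 12.2% hold 3 or more. GC content was 63.2% in the *Bmp4* window and 72.0% in the *Grem1* window, against a median of 52.4% over the table. No annotated exon lies in either window, and nothing about binding follows from the letters.

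Levels are given as counts per 1000000 UMIs of the same cells (CPM), with exact 95% Poisson intervals, and shares of cells with exact Clopper-Pearson intervals. Both cover counting error only, not the spread between embryos. Of the 150 pairs of member and cluster, 11 were at least 2-fold above the other labelled cells in both libraries, where 2.13% of all pairs of gene and cluster were (4180 of 196290). The 11 pairs fell on 8 of the 10 members, beside 23.5% of all genes with such a pair, and *Bmp4* and *Chrdl1* had none. The highest cluster was the same in both libraries for 4 members, *Bmp2* (OG4), *Bmp3* and *Bmp7* (EC2) and *Grem1* (EC3), beside 30.9% of all genes. For *Bmp7* no other interval overlapped with that of the highest cluster in either library. The share of all genes with such a gap is not given, so this is not read as particular to the members. In 3 of the 11 pairs, *Bmp5* in MG4, *Bmp6* in MG3 and *Grem1* in EC3, a library held under 10 UMIs, which leaves 8.

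**Figure D1:**
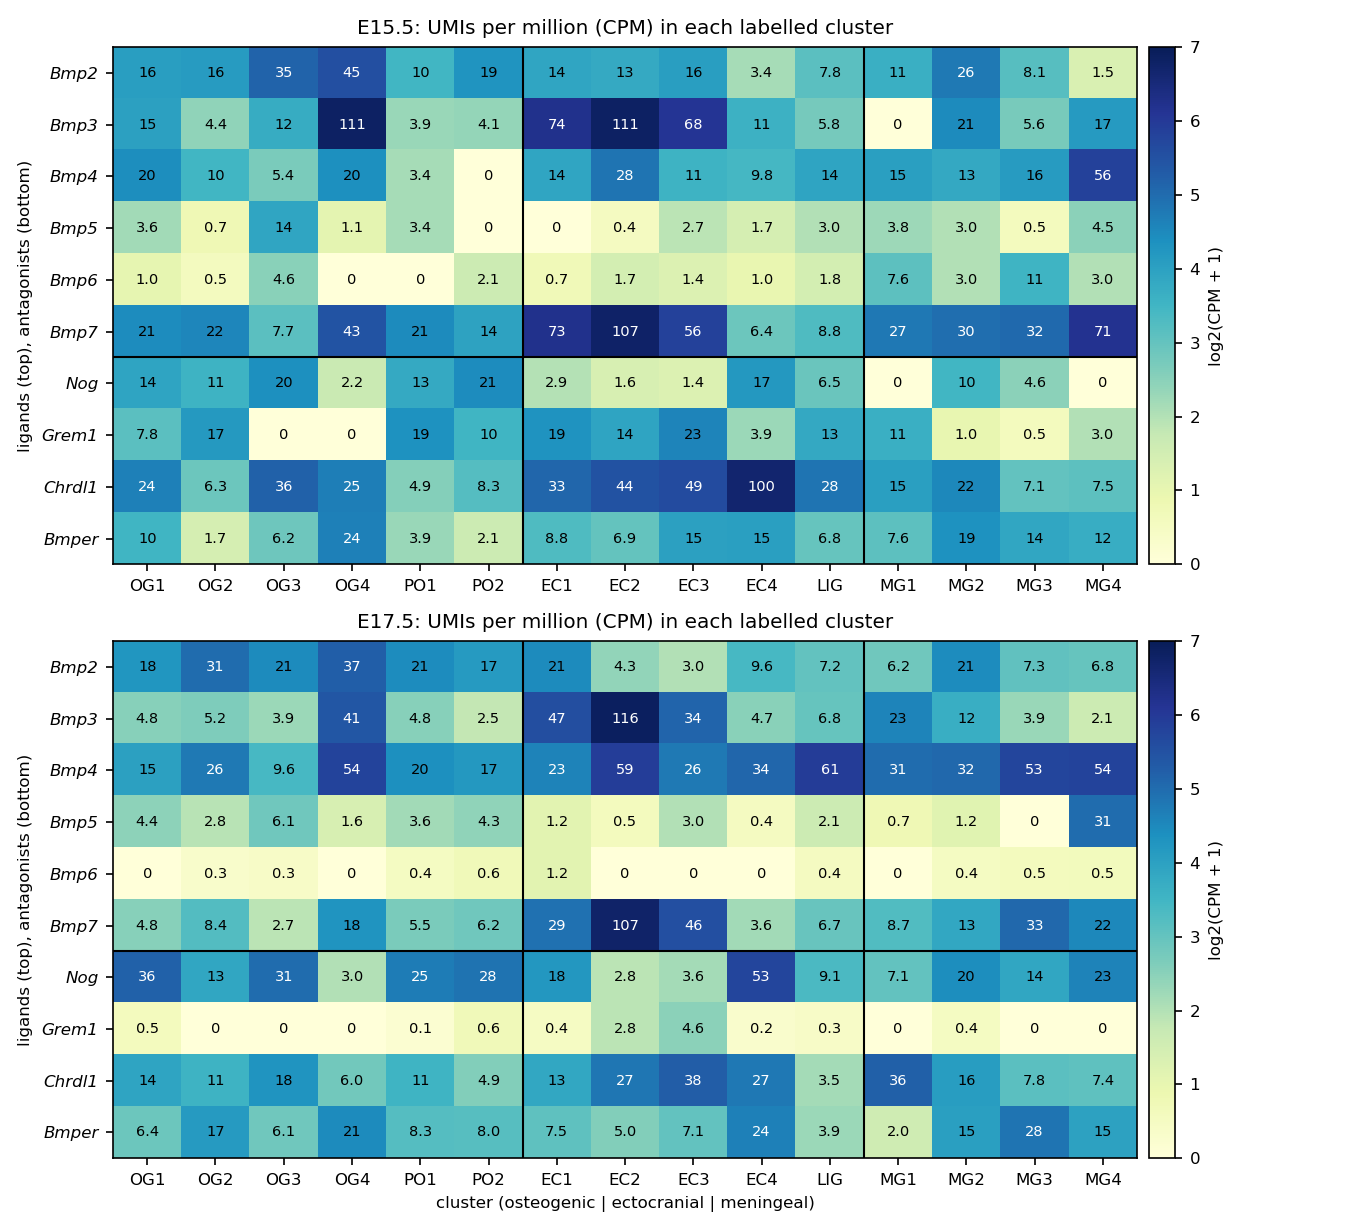
CPM of the 10 members (rows: 6 ligands above, 4 antagonists below the line) in the 15 labelled clusters (columns, with lines between the osteogenic, ectocranial and meningeal clusters) at E15.5 (top) and E17.5 (bottom); numbers are CPM and colour is log2(CPM + 1). *Bmp3* and *Bmp7* are darkest in EC2 in both libraries, and *Grem1* is pale throughout at E17.5.

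Among the labelled clusters, *Bmp2* (ENSMUSG00000027358, chromosome 2, 133552159-133562885, plus strand) was highest in the osteoblasts. In OG4 it reached 45.3 CPM (36.0 to 56.3) at E15.5, against 36.8 CPM (33.2 to 40.6) at E17.5, which is 3.28-fold (2.58 to 4.14) and 2.36-fold (2.101 to 2.647) the level of the other labelled cells. The next clusters were OG3 at E15.5 (34.8 CPM) and OG2 at E17.5 (30.9 CPM), each with an interval that overlaps that of OG4. Levels were lowest in MG4 at E15.5 (1.51 CPM, 1 UMI) and in EC3 at E17.5 (3.05 CPM). Of the 6 ligands, *Bmp2* was the one with osteoblasts as its highest cluster in both libraries. Osteogenic over other labelled cells, *Bmp2* came to 1.70-fold at E15.5, and to 2.75-fold at E17.5. Chondrocyte markers summed to 469 CPM in OG4 at E15.5, beside 354 CPM over all labelled cells, and to 74.7 beside 120 CPM at E17.5, and their part in the *Bmp2* level was not tested.

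*Bmp4* (ENSMUSG00000021835, chromosome 14, 46383520-46390669, minus strand), the close relative of *Bmp2*, did not share that pattern. At E15.5 it was highest in the arachnoid cluster MG4, at 55.7 CPM (39.2 to 76.8) from 37 UMIs in 64 cells, ahead of EC2 at 27.9 CPM. At E17.5 LIG (60.9 CPM, 56.0 to 66.2), EC2 (59.0), MG4 (54.2), OG4 (53.6) and MG3 (53.4) had overlapping intervals at the top. In LIG it was 14.04 CPM at E15.5, and in OG4 19.9 CPM. MG4 held endothelial markers at a summed 114 CPM at E15.5 and 134 CPM at E17.5, more than any other cluster, beside 24.2 CPM over all labelled cells in each library, and their part in the *Bmp4* level there was not tested. *Bmp4* has 2 genes on the opposite strand within its span, Gm15217 and Gm15222.

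*Bmp5* (ENSMUSG00000032179, chromosome 9, 75775364-75900310, plus strand) was sparse, with 103 and 305 UMIs in all labelled cells. In OG3, the pre-osteoblasts of bone surfaces, it was 13.9 CPM (8.25 to 21.99, 18 UMIs) at E15.5 and 6.06 CPM (4.79 to 7.56, 78 UMIs) at E17.5, or 7.75-fold and 2.13-fold the other cells. At E17.5 MG4 stood alone at the top with 30.5 CPM (23.2 to 39.5), 11.2-fold the other cells, and each suffix showed it (38.7, 26.8 and 33.8 CPM, from 3, 25 and 30 UMIs). MG4 at E15.5 held 3 UMIs of *Bmp5* in its 64 cells, a fold of 2.16 with an interval of 0.439 to 6.51.

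*Bmp6* (ENSMUSG00000039004, chromosome 13, 38345107-38500302, plus strand) had the fewest UMIs of the ligands, 89 at E15.5 and 21 at E17.5. In MG3 it was 10.7 CPM (6.61 to 16.3, 21 UMIs) at E15.5, 7.33-fold the other cells, and 1 UMI in 165 cells at E17.5. All 15 clusters had overlapping intervals at E17.5, so no order of clusters can be read there.

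*Bmp7* (ENSMUSG00000008999, chromosome 2, 172868012-172940321, minus strand) was highest in the hypodermal cluster EC2 in both libraries, at 107 CPM (101 to 114) and 107 CPM (99.9 to 114). No other cluster overlapped with it: EC1 followed at E15.5 (73.5 CPM) and EC3 at E17.5 (45.7 CPM). Of the EC2 cells, 60.1% (56.9 to 63.3) and 72.7% (69.0 to 76.2) held a UMI, and 25.9% and 29.3% did once each cell was thinned to 3000 UMIs. Over the other labelled cells EC2 stood 3.09-fold (2.84 to 3.36) and 10.45-fold (9.50 to 11.5) higher. Its pattern over the 15 clusters was the most alike between the libraries among the members, with Pearson r = 0.893 of log2(CPM + 1).

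*Bmp3* (ENSMUSG00000029335, chromosome 5, 98854415-98884396, plus strand), the ligand that opposes osteogenic signalling, was highest in EC2 in both libraries, and EC1, EC3 and the osteoblasts followed. In EC2 it was 111 CPM (105 to 118) at E15.5, next to 116 CPM (108 to 124) at E17.5, 3.17-fold and 9.02-fold the other cells. In OG4 it was 111 CPM (96.2 to 128) and 41.4 CPM (37.6 to 45.5), 2.35-fold and 2.16-fold. EC1 held 74.1 and 46.7 CPM and EC3 held 67.9 and 34.0 CPM. At E15.5 the intervals of EC2 and OG4 overlap, and at E17.5 EC2 stood apart from all others. Without suffix 1 the E17.5 level in EC1 was 25.9 CPM (18.5 to 35.3). Pericyte markers summed to 142 CPM in EC2 at E15.5, beside 98.8 CPM over all labelled cells, and to 283 beside 82.6 CPM at E17.5, and their part in the *Bmp3* and *Bmp7* levels there was not tested. Within OG4 the 3 suffixes gave 45.5, 41.0 and 40.3 CPM, but the fold over the other cells was 1.16 in suffix 1 and 2.69 in both others, beside 39.8 CPM over all labelled cells of suffix 1 and 18.2 and 17.8 CPM over those of the others.

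With the osteogenic clusters pooled, *Bmp3* and *Bmp7* were at least 2-fold lower there than in the other labelled cells in both libraries (*Bmp3* 0.407 and 0.348, *Bmp7* 0.409 and 0.238 times), where 7.15% of all genes were. No member was at least 2-fold higher in osteogenic cells in both libraries, beside 3.26% of all genes. *Nog* came to 2.50-fold and 1.53-fold. For OG4 alone, *Bmp2*, *Bmp3* and *Bmper* passed the limit in both libraries, 3 of 10 members beside 3.29% of all genes.

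*Nog* (ENSMUSG00000048616, chromosome 11, 89300638-89302332, minus strand), which encodes noggin, was high in the progenitors OG1 and the pre-osteoblasts OG3 in both libraries and low in osteoblasts. The other pre-osteoblast cluster, OG2, came to 1.82-fold the rest of the labelled cells in the earlier library but to 0.675 times in the later one. At E15.5 it was 14.04 CPM (9.25 to 20.4) in OG1, 10.97 in OG2 and 20.1 in OG3, against 2.21 CPM (0.602 to 5.66, 4 UMIs) in OG4. At E17.5 it was 35.6 CPM (32.3 to 39.1) in OG1, 13.5 in OG2 and 31.1 in OG3, against 3.05 CPM (2.08 to 4.30, 32 UMIs) in OG4. OG4 over OG1 was 0.157 (0.0400 to 0.452) at E15.5 and 0.0857 (0.0579 to 0.123) at E17.5, and OG4 over OG3 was 0.110 (0.0279 to 0.317) and 0.0982 (0.0662 to 0.141). After thinning to 3000 UMIs, cells with a *Nog* UMI made up 0 of 176 cells of OG4 at E15.5, where a count of 0 allows up to 1.70% by the limit of 3 counts and 2.07% by the exact interval, and 1.33% (0.536 to 2.72) at E17.5, against 3.86% and 9.80% in OG1.

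The highest value at E15.5 was that of the proliferating PO2, 20.7 CPM (9.91 to 38.0) from 10 UMIs in 35 cells, and its interval overlaps those of 7 other clusters. Outside the osteogenic clusters *Nog* was highest in EC4, with 17.3 CPM (13.5 to 21.9) at E15.5, against 53.0 CPM (46.5 to 60.1) at E17.5. These are 3.19-fold and 2.99-fold the other labelled cells, and each E17.5 suffix gave 48.7 to 57.1 CPM. LIG, the ligament-like tissue above the suture, held 6.52 and 9.12 CPM, so EC4 was 2.66-fold (1.68 to 4.35) and 5.81-fold (4.51 to 7.54) above it. EC2 and EC3, where the ligands *Bmp3* and *Bmp7* were high, were among the lowest, at 1.63 and 1.40 CPM and at 2.77 and 3.56 CPM.

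**Figure D2:**
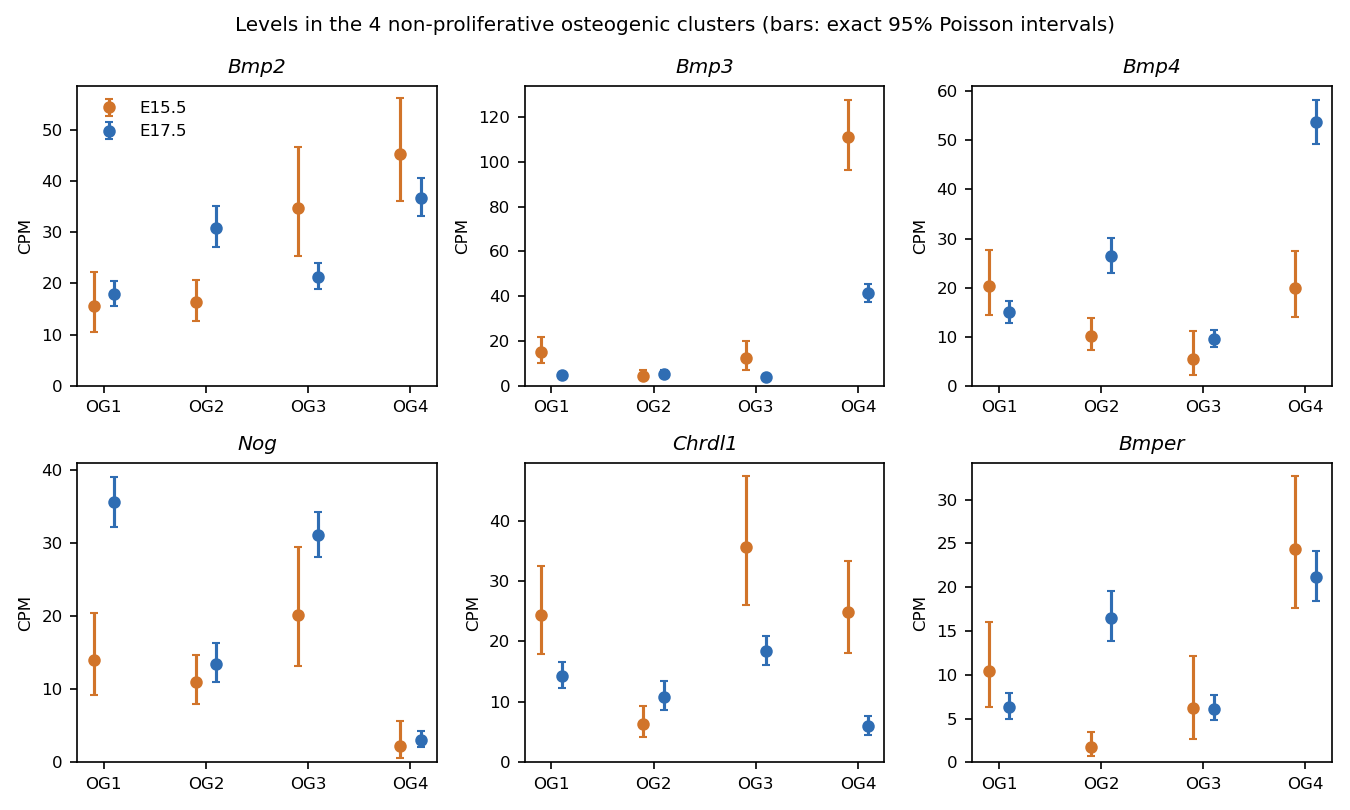
CPM of 6 members in the 4 osteogenic clusters that are not proliferative (OG1 progenitors, OG2 and OG3 pre-osteoblasts, OG4 osteoblasts), orange E15.5 and blue E17.5; points are CPM of summed UMIs and bars exact 95% Poisson intervals. *Bmp2*, *Bmp3* and *Bmper* have their highest point in OG4 in both libraries, and *Nog* its lowest.

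*Grem1* (ENSMUSG00000074934, chromosome 2, 113746164-113758646, minus strand) encodes gremlin 1. It was highest in EC3 at E15.5, with 23.0 CPM (20.3 to 26.1, 247 UMIs), and PO1, EC1, OG2, MG1 and PO2 had overlapping intervals. In OG2 it was 17.1 CPM, while OG3 and OG4 held 0 UMIs, which allows up to 2.32 and 1.66 CPM, by the limit of 3 UMIs in the cluster. With 0 set to 3 UMIs, OG2 was at least 7.36-fold higher than OG3 and at least 10.3-fold higher than OG4, and the exact lower limits, which also hold the counting error of OG2, were 5.83-fold and 8.15-fold. At E17.5 46 UMIs were left in all labelled cells, 22 of them in EC2 and 9 in EC3 (4.57 CPM, or 1.97 CPM from 2 UMIs without suffix 2), and OG2, OG3 and OG4 each held 0, which allows up to 0.378, 0.233 and 0.286 CPM.

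*Chrdl1* (ENSMUSG00000031283, chromosome X, 143285674-143394262, minus strand) encodes chordin-like 1. Its highest cluster at E15.5 was EC4, with 99.7 CPM (90.2 to 110), which no other cluster overlapped. At E17.5 EC4 held 26.9 CPM (22.3 to 32.2), while EC3 (37.6), MG1 (36.0) and EC2 (27.4) overlapped with it at the top. The suffixes differed in EC4, with 58.7 CPM (46.0 to 73.8) in suffix 1 against 17.1 and 11.8 CPM, and without suffix 1 EC4 held 14.8 CPM (10.9 to 19.6). Pericyte markers were highest in EC4 at E15.5 (173 CPM, beside 98.8 over all labelled cells) and in EC3 at E17.5 (286 CPM, beside 82.6). Chondrocyte markers were highest in MG1 among the clusters, at a summed 1233 CPM at E15.5 and 351 CPM at E17.5. Without a label, pericyte-like cells held *Chrdl1* at 2.21 and 5.31 CPM and chondrocyte-like cells at 4.03 and 15.1 CPM. The part of both cell types in the *Chrdl1* levels of these clusters was not tested. In both libraries EC4 exceeded LIG, 3.58-fold (2.90 to 4.46) and 7.75-fold (5.21 to 11.8, or 4.52-fold without suffix 1), and OG3 exceeded OG2, 5.61-fold (3.40 to 9.45) and 1.70-fold (1.32 to 2.20).

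*Bmper* (ENSMUSG00000031963, chromosome 9, 23223076-23485200, plus strand) encodes a BMP-binding endothelial regulator. In OG4 it was 24.3 CPM (17.7 to 32.6) at E15.5, near 21.1 CPM (18.5 to 24.1) at E17.5, 2.38-fold (1.70 to 3.24) and 2.32-fold (1.99 to 2.70) the other cells. In suffix 1 of E17.5 that fold was 1.55. OG2 differed between the libraries: 1.71 CPM (7 UMIs) at E15.5, the lowest of all clusters, and 16.5 CPM (131 UMIs) at E17.5. The OG2 markers *Lef1* and *Inhba* were under 2-fold in OG2 at E17.5, and their part in that difference was not tested. At E15.5 MG2, EC4, MG3, MG4 and MG1 overlapped with OG4, and at E17.5 MG3 (27.9 CPM), EC4 (24.5), OG4 and MG4 overlapped at the top.

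In the osteoblasts, the summed UMIs of the 4 antagonists were few beside those of the 6 ligands. The ratio in OG4 was 0.234 (0.184 to 0.293) antagonist UMIs per ligand UMI at E15.5 and 0.199 (0.176 to 0.224) at E17.5, against 0.511 (0.490 to 0.533) and 0.483 (0.465 to 0.501) over all labelled cells. OG1 stood at 0.742 and 1.21, and OG3 at 0.784 and 1.27. EC4 was the only cluster with an interval above 1 in both libraries, with 4.10 (3.40 to 4.99) and 2.02 (1.72 to 2.37). In EC2 the ratio was 0.254 and 0.133. The ligand sum counts *Bmp3*, which opposes osteogenic BMP signalling. In the earlier library *Bmp3* gave 201 of the 398 ligand UMIs of OG4 and 1026 of the 2409 of EC2. For the later library these were 435 of 1595 and 921 of 2278. Antagonists outside the 4, among them *Sost*, *Fst* and *Sostdc1*, were not counted. The ratios thus depend on which members are summed, and a ratio without *Bmp3* was not computed.

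LIG had 1.32 (1.07 to 1.62) antagonist UMIs per ligand UMI at E15.5 and 0.20 (0.167 to 0.238) at E17.5. That was the widest gap between the libraries as a fold, while EC4 had a wider one as a difference. *Bmp4* went from 14.04 to 60.9 CPM there, *Chrdl1* from 27.8 to 3.48 CPM and *Grem1* from 13.04 to 0.326 CPM. These are ratios of 3′ UMIs, which do not scale with transcript length, and not of protein, and the sums weigh each member by its UMIs.

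**Figure D3:**
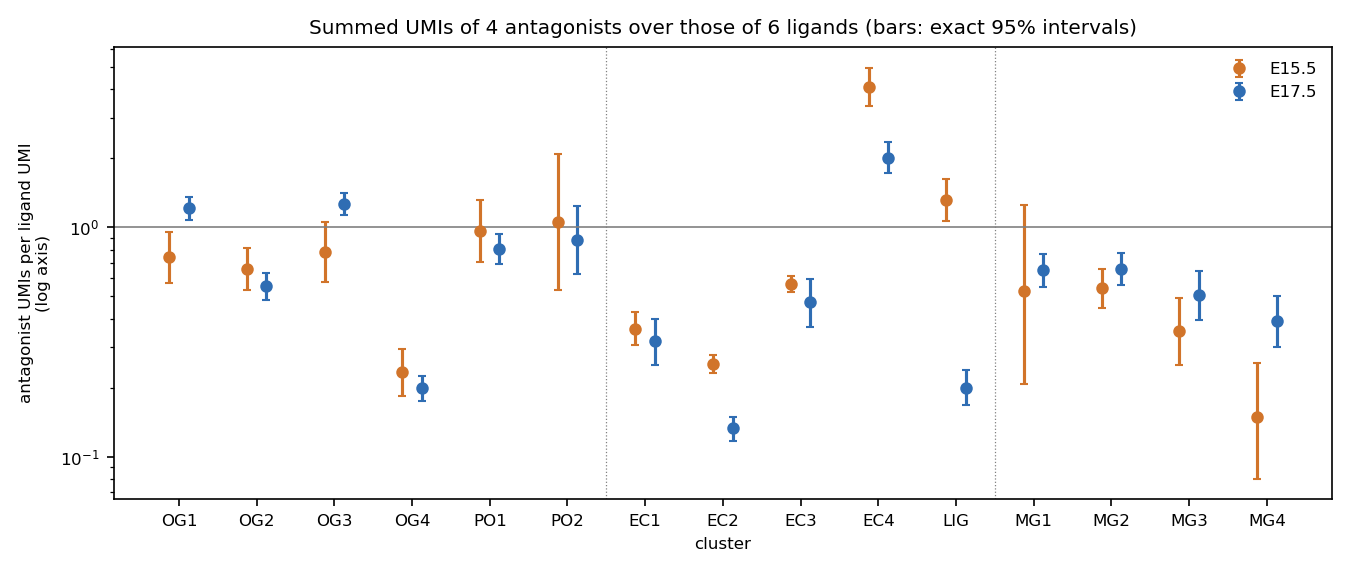
Summed UMIs of *Nog*, *Grem1*, *Chrdl1* and *Bmper* per summed UMI of *Bmp2* to *Bmp7* (log axis) in each labelled cluster, orange E15.5 and blue E17.5, with exact 95% intervals. EC4 lies above 1 in both libraries, OG4 and EC2 lie at or below 0.254 in both, and LIG lies above 1 at E15.5 and at 0.20 at E17.5.

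Between the libraries, 7 of the 10 members differed at least 2-fold over all labelled cells. *Bmp4* (15.55 to 33.2 CPM, 2.14-fold, 1.97 to 2.32) and *Nog* (6.44 to 19.4 CPM, 3.02-fold) were higher at E17.5, where 5.6% of all genes were that much higher. *Bmp3* (49.6 to 21.7 CPM, 0.438 times), *Bmp6* (1.83 to 0.227 CPM, 0.124 times), *Bmp7* (48.4 to 18.5 CPM, 0.383 times), *Grem1* (13.2 to 0.497 CPM, 0.0376 times) and *Chrdl1* (37.2 to 15.4 CPM, 0.414 times) were lower, where 11.9% of all genes were. *Bmp2* (14.98 and 18.0 CPM), *Bmp5* (2.12 and 3.29 CPM) and *Bmper* (10.8 and 10.49 CPM) stayed under 2-fold. The median ratio over all genes tested was 0.993, and 20 of the 13086 genes had a ratio at or below that of *Grem1*.

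The makeup of the libraries also differed, and its part in these ratios was not tested. EC2, where *Bmp3* and *Bmp7* were highest, made up 17.3% of labelled cells at E15.5, but 8.90% at E17.5, and EC3 made up 22.2% and 2.84%. Within EC2 the ratio was 1.04 (0.9504 to 1.138) for *Bmp3* and 0.998 (0.909 to 1.10) for *Bmp7*. Over the 15 clusters, as given below, *Bmp3* was lower at E17.5 in 8 and higher in 1. *Bmp7* was lower in 9 and higher in 0. With the E17.5 clusters weighted by their share of UMIs at E15.5, the ratio was 0.744 for *Bmp3*, 0.774 for *Bmp7* and 0.569 for *Chrdl1*, all under 2-fold, while *Bmp4* (2.41), *Nog* (2.27), *Bmp6* (0.118) and *Grem1* (0.126) were past it.

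*Bmp4* was higher at E17.5, with an interval above 1, in 11 of 15 clusters and lower in 0, and *Nog* in 8 and 0. *Grem1* was lower, with an interval below 1, in 10 clusters and higher in 0, and *Bmp6* in 7 and 0. *Bmp7* was lower in 9 clusters and higher in 0, *Bmp3* lower in 8 and higher in 1 (MG1), and *Chrdl1* lower in 8 and higher in 2. *Bmp2* was higher in 4 clusters and lower in 3, *Bmper* 4 and 2, and *Bmp5* 2 and 1.

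**Figure D4:**
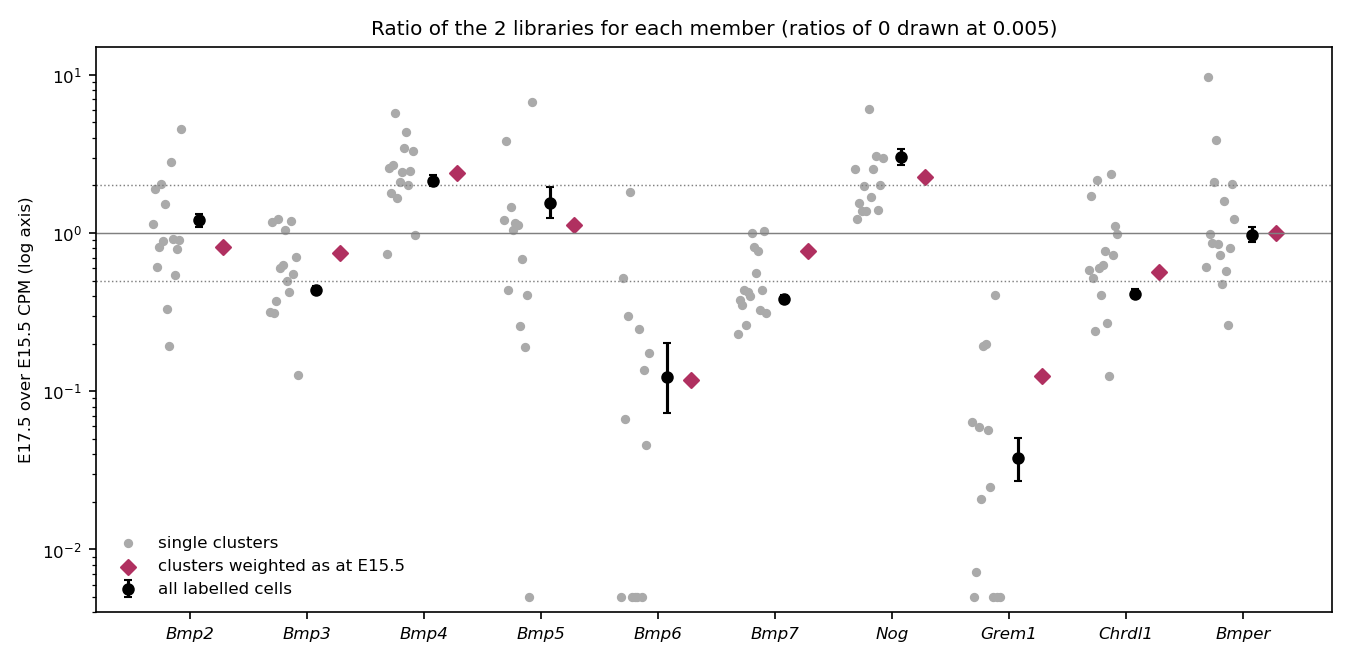
E17.5 over E15.5 CPM of each member (log axis), in single clusters (grey; ratios of 0 drawn at 0.005, ratios against 0 UMIs not drawn), over all labelled cells (black, with exact 95% intervals) and with the E17.5 clusters weighted as at E15.5 (diamonds); dotted lines mark 2-fold. *Bmp3*, *Bmp7* and *Chrdl1* lie below the lower dotted line in black and above it as diamonds, and *Grem1* and *Bmp6* lie below it as both.

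The barcode suffixes of E17.5 give the spread within that library, although they may share litters. Over all labelled cells *Bmp3* was 39.8 CPM (36.8 to 43.1) in suffix 1 and 18.2 and 17.8 CPM in the others, and *Bmp7* was 34.2 CPM (31.4 to 37.2) against 15.1 and 15.6 CPM. EC2 made up 14.02% of the labelled cells of suffix 1 and 7.73% and 7.82% of the others. Inside EC2 suffix 1 was also higher for *Bmp3*, 170 CPM (154 to 188) against 93.8 and 93.6 CPM, and for *Bmp7*, 138 CPM (123 to 154) against 96.8 and 92.3 CPM. *Bmp4* (34.1, 32.0 and 34.1 CPM) and *Nog* (20.8, 18.9 and 19.4 CPM) were close to alike across suffixes. With suffix 1 alone, 4 members were at least 2-fold apart from E15.5, and 7 with suffix 2 or suffix 3 alone. Shares of all genes are not given for single suffixes, so these counts show only how the number moves. MG1 has 0 cells in suffix 1.

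**Figure D5:**
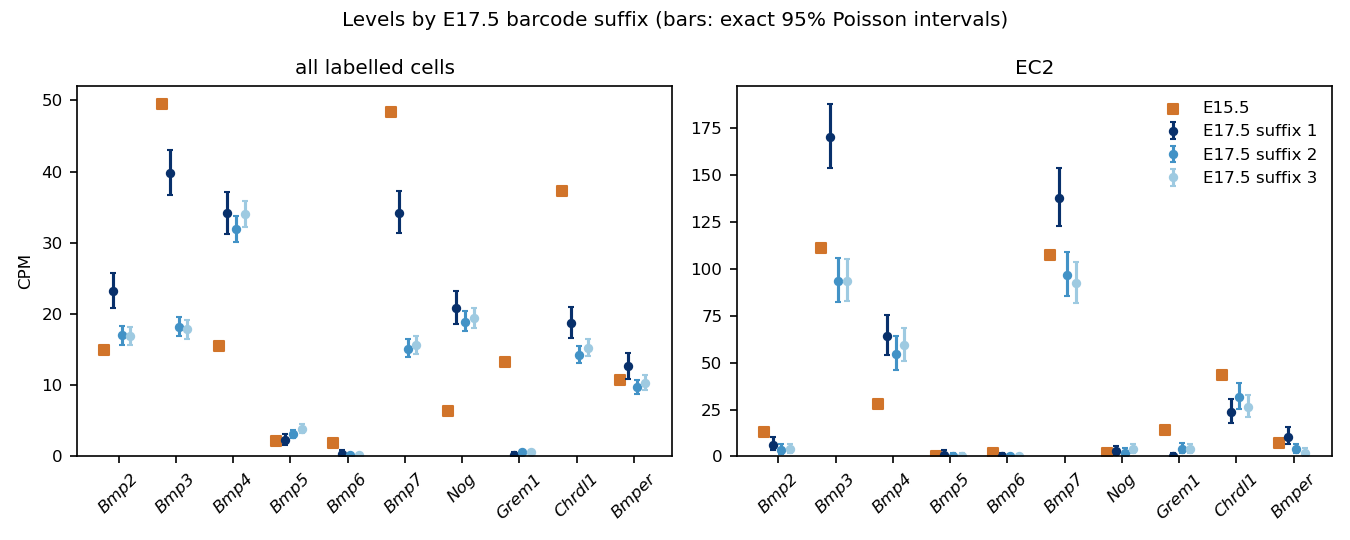
CPM of the 10 members in the 3 barcode suffixes of E17.5 (blue, with exact 95% Poisson intervals) and in E15.5 (orange squares), over all labelled cells (left) and in EC2 (right); the panels have their own linear scales. Suffix 1 lies above suffixes 2 and 3 for *Bmp3* and *Bmp7* in both panels.

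Genes whose pattern over the 15 clusters was most like a member's were ranked by the lower of the r values of the 2 libraries, over 10890 genes with at least 100 UMIs in each. All points of a correlation share a library, and some clusters are small, so these are descriptions. For *Bmp3* the closest was *Dst* (r = 0.824 and 0.816), followed by *Has1*, a hyaluronan synthase, and *Nfe2l3*. *Mapk12*, *Akr1c14* and *Anxa3* were closest to *Bmp7*, with r from 0.775 to 0.830. *Bmper* was closest to *Bbs9* (0.743 and 0.678), which lies on the same strand of chromosome 9 and ends 335 kb before it, and then to *Slc39a11* and *Tmem110*.

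The others had the following neighbours. *Bmp2* had *Rps12-ps3*, *Ap4s1* and *Ank*, the pyrophosphate transporter, *Bmp4* had *Mpg*, *Lamtor4* and *Sh3glb2*, and *Bmp5* had *B9d1*, *Ubxn2b* and *Tmx3*. *Nog* had *Dhx16*, *Poldip3* and *Kcnmb4*, and *Chrdl1* had *Antxr1*, *Osbpl1a* and *Fgf7*, a fibroblast growth factor. *Bmp6* and *Grem1* had under 100 UMIs in a library and were not ranked. Between the libraries, the members' own patterns ranged from r = 0.0696 for *Bmp6* to r = 0.893 for *Bmp7*, with *Nog* at 0.639 and *Bmper* at 0.343.

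The rest of the pathway was read from a fixed list. Of 10 other ligands and related proteins 4 were tested, and 1 had a cluster at least 2-fold above the other cells in both libraries, beside 23.5% of all genes: *Bmp8a* in OG4, with 44.2 CPM at E15.5 and 17.9 CPM at E17.5. That is 90.0-fold and 81.7-fold the other labelled cells. The other tested genes of this list were *Gdf5*, *Gdf10* and *Bmp1*, a protease that cleaves chordin. *Bmp1* was lower at E17.5, at 0.498 times, and 0 of the 4 were at least 2-fold higher, beside 11.9% and 5.6% of all genes.

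Of 11 other antagonists 9 were tested and 3 had such a cluster, beside 23.5% of all genes. *Sost*, which encodes sclerostin, was 22.7 and 14.1 CPM in OG4, 88.4-fold and 96.5-fold the other cells. *Fst*, which encodes follistatin, was 63.7 and 46.2 CPM in EC3, and *Sostdc1* was 97.0 and 75.2 CPM in EC4, where *Nog* was also high. Over all labelled cells *Fst* (0.170 times) and *Sostdc1* (0.445 times) were at least 2-fold lower at E17.5, beside 11.9% of all genes.

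All 10 receptors and co-receptors were tested, and 2 had such a cluster, a share near the 23.5% of all genes. *Bambi*, a pseudoreceptor that damps BMP signalling, was 418 and 362 CPM in OG4, 9.64-fold and 5.28-fold the other cells. *Bmpr1b* in LIG rests on 13 and 10 UMIs. The type I receptor *Bmpr1a* was lowest in OG4 in both libraries, at 25.4 and 26.3 CPM, and highest in MG1 at E15.5 (64.9 CPM) and MG3 at E17.5 (48.0 CPM). *Acvr2a* (0.452 times) and *Rgmb* (0.453) were at least 2-fold lower at E17.5, and 0 of the 10 were higher, beside 11.9% and 5.6% of all genes.

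Of 6 intracellular members, 1 (*Smad9*) had such a cluster, beside 23.5% of all genes. It was MG3, with 9.16 and 11.3 CPM. *Smad9* (2.29-fold) and the inhibitory *Smad6* (2.54-fold) were higher at E17.5, and *Smad7*, also inhibitory, was lower (0.491 times), beside 5.6% and 11.9% of all genes. Of 9 targets 5 had one, beside 23.5% of all genes: *Msx1* in MG4 (116 and 299 CPM) and MG1, *Msx2* in MG2 (69.1 and 105 CPM), *Dlx5* and *Hey1* in OG3 (74.2 and 194 CPM, and 34.8 and 17.8 CPM) and *Id4* in EC4 (24.2 and 24.9 CPM). *Msx1*, *Msx2* and *Dlx5* encode homeodomain factors of skull growth. Over all labelled cells they were 4.74-fold, 3.23-fold and 10.3-fold higher at E17.5, where 5.6% of all genes were at least 2-fold higher. *Dlx5* is also a label marker, so its place among the osteogenic clusters was used to name them.

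Free RNA can give UMIs to cells that do not express a gene, so shares were also set beside those of the myeloid-like cells without a label (395 cells, median 8803 UMIs, and 557 cells, median 9206 UMIs). Whether these cells express a member was not tested. For *Bmp2* they held more than some other types without a label, 17.8 CPM at E17.5 against 2.57 CPM in endothelial-like and 5.71 CPM in osteoclast-like cells. Their *Bmp2* shares are therefore given as values only. *Bmp2* had a UMI in 27.9% (21.7 to 34.8) and 42.1% (37.9 to 46.5) of OG4 cells (median 7352 and 19349 UMIs), against 8.61% and 11.3% of the myeloid-like cells. After thinning to 3000 UMIs these shares were 7.39% (3.99 to 12.3) and 10.4% (7.96 to 13.4) in OG4, beside 3.141% and 5.925%. Thinned *Bmp2* shares were at or below the myeloid-like ones in 6 clusters at E15.5 and in 11 at E17.5. With every cell thinned to 3000 UMIs, *Bmp6* shares were at or below the myeloid-like ones in 12 clusters at E15.5 and in 10 at E17.5, and *Grem1* shares in 5 and 9. Without thinning these were 6 and 6 for *Bmp6* and 4 and 6 for *Grem1*. For *Nog* the thinned myeloid-like shares were 0.262% and 0.180%, and OG4 lay below the first, with 0 cells, and above the second, with 1.33%. For *Chrdl1* 0 clusters lay at or below the myeloid-like share in either library, thinned or not.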

How the data were processed

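Single cells were captured with the 10x Chromium 3′ v2 kit. Per the study's methods and the submitters' processing notes, the authors aligned and counted the reads with Cell Ranger on the mm10 transcriptome and deposited UMI counts per gene and barcode, before cell filters, 1 matrix a stage. The E17.5 batches were counted individually and aggregated with default settings. In its header the E15.5 matrix names software version 3.1.0. Cluster labels came from the authors' deposited table (Seurat 3.2.0, integration of both stages), and 5 E15.5 cells of that table had no barcode in the matrix. All 5335 labelled E15.5 cells hold fewer UMIs in the matrix than the UMI counts of that table (medians 8510 and 11513), and all 6830 E17.5 cells hold the same number. The authors' deposited list of integrated cells was not used, and 0 columns belong to other samples.

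UMIs were summed over the labelled cells of a cluster and divided by all their UMIs (CPM). Intervals were exact Poisson (levels), exact Clopper-Pearson (shares) and exact conditional binomial (ratios), all at 95%, with a denominator of 0 set to 3 UMIs. Genes with at least 20 UMIs in the labelled cells of each library were compared with a limit of 2-fold, and called tested genes. The count was tried on simulated data with known folds placed in OG4 alone and with counting error only. It therefore does not cover other clusters or the spread between cells, batches or embryos. With 1 library a stage no p-value was computed.

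Named were the 10 members, the pathway genes with a cluster past 2-fold in both libraries (at most 5 a role), and the 3 genes most like each member with at least 100 UMIs in each library. Other pathway genes named with a ratio between the libraries were named after their values were seen. The members and lists were chosen with earlier results of these data known. Cells without a label were kept at 1000 UMIs, 1000 genes, at most 7.5% mitochondrial and 3% Hbb and Hba UMIs, clustered with scanpy 1.11.5 (2000 variable genes, 30 components, resolution 1), and named from at least 3 markers. Doublets were scored with Scrublet per suffix, and 213 and 334 labelled cells lay in the top 6%. Those cells stayed in, and leaving them out was an alternative. The alternatives with a minimum of 10 UMIs in a pair and with E17.5 clusters weighted as at E15.5, and those without each E17.5 suffix in turn, were added after seeing the data. Gene positions, overlaps and exons are those of the GENCODE mouse annotation, with Ensembl identifiers. Promoters are those of the RefSeq table (GRCm38.p6). The values of 1 gene of the pathway list are not reported here.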

Additional observations from a re-analysis of the deposited data

Results flagged for a closer look

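A member stood above the other labelled cells in a cluster in one library and below them in the other in 4 cases, with intervals on opposite sides of 1, and the difference itself was not tested. The share of all pairs of gene and cluster is not given for such cases, so the count is not read as particular to the members. At E15.5 *Bmp7* in MG3 was 0.652 times the level elsewhere, against 1.80-fold at E17.5, while its level in MG3 was 32.0 and 32.8 CPM (ratio 1.02, 0.715 to 1.47). *Nog* in OG2 was 1.82-fold at E15.5 and 0.675 times at E17.5, with 10.97 and 13.5 CPM in OG2 (ratio 1.23, 0.861 to 1.78). In both of these cases the level of the other labelled cells differed between the libraries. *Grem1* in OG2 was 1.33-fold at E15.5, and 0 at E17.5, where 0 UMIs were counted in 522 cells. *Bmper* in OG2 was 0.147 times at E15.5, against 1.67-fold at E17.5, with 1.71 and 16.5 CPM in OG2. The OG2 markers *Lef1* and *Inhba* stood out in OG2 by 8.35-fold and 7.02-fold at E15.5, but by 1.96-fold and 1.53-fold at E17.5, and their part in the 3 OG2 results was not tested.

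Cells without a label were left out of the cluster folds and library ratios. Among them, the chondrocyte-like cells held *Bmp2* at 65.5 CPM (60.6 to 70.8, 840 cells) at E15.5. At E17.5 they held 56.2 CPM (48.3 to 65.0, 318 cells). OG4, the highest labelled cluster, held 45.3 and 36.8 CPM, and the myeloid-like cells held 14.5 and 17.8 CPM. Of all *Bmp2* UMIs in kept cells, 63.3% (E15.5) and 27.0% (E17.5) were in cells without a label. Chondrocyte markers summed to 469 CPM in OG4 at E15.5 and 74.7 CPM at E17.5, beside 354 and 120 CPM over all labelled cells, and their part in the *Bmp2* level of OG4 was not tested.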

How the results depend on the processing

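No paired analysis was possible because the stages have 1 library each and no test was run. Of 480 recomputed values of single members, 374 moved by less than their counting interval, 96 moved further and 10 turned to the other side of 1. The 11 pairs of member and cluster became 21 at 1.5-fold and 19 against the median of the other 14 clusters, and 8 to 12 under all other settings. The 2 members apart between osteogenic and other cells became 7 at 1.5-fold and 2 or 3 elsewhere. The 4 members with the same highest cluster became 2 with the mean of each cell's CPM, and 3 or 4 elsewhere. The 7 members apart between the libraries became 4 with suffix 1 alone, 4 with all clusters weighted alike and 4 with the E17.5 clusters weighted as at E15.5, and 7 or 8 elsewhere. Shares of all genes are not given at these other settings. The counts therefore show only how the numbers of members move with the setting.

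The values that turned were *Bmper* in osteogenic over other cells at E17.5 (0.962 with the mean of each cell's CPM, 0.476 in suffix 1 alone, 0.936 without suffix 3, against 1.16 with all cells summed), *Bmp2* between the libraries (0.955 with clusters weighted alike, 0.816 weighted as at E15.5, against 1.20 with all cells summed), and 5 that came to 0: *Nog* in PO2 at E15.5 (share of cells after thinning), *Bmp6* in EC1 at E17.5 (suffix 1 and suffix 2 alone, and without suffix 3) and *Grem1* in EC3 at E17.5 (suffix 1 alone). The cause was not tested. Depth limits *Bmp6* at E17.5 (21 UMIs) and *Grem1* at E17.5 (46 UMIs), for which no order of clusters can be read beyond the intervals.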

Other observations

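Other cells without a label also held members, named "-like" from their markers and given here as values. In pericyte-like cells *Bmp5* was 16.4 CPM (191 cells) at E15.5 and 26.6 CPM (174 cells) at E17.5, above 14 of the 15 labelled clusters at E17.5. In endothelial-like cells *Bmp4* was 50.1 CPM (39.6 to 62.5, 119 cells) at E17.5 and rested on 3 UMIs in 47 cells at E15.5. In the 97 cells of E17.5 that carried pineal or photoreceptor markers, *Bmp7* was 52.0 CPM (41.4 to 64.4) and 48.5% of cells held a UMI.

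In chondrocyte-like cells *Nog* was 17.52 CPM (15.01 to 20.3) at E15.5 and 7.41 CPM at E17.5, and *Bmper* was 17.52 CPM and 25.0 CPM (19.9 to 31.1). *Bmp3* was 8.05 CPM there at E15.5, against 38.9 CPM (32.4 to 46.3) at E17.5, where 130 of the 318 cells formed a cluster with *Prg4*, *Gdf5* and *Bmp3* itself among its 10 leading genes. At E15.5 a cluster of 306 cells with *Prg4* among its leading genes did not meet the rule for a name and stayed unnamed. The chondrocyte-like cells of the 2 libraries thus need not be the same population. All unnamed cells together held *Bmp3* at 95.2 CPM (719 cells) at E15.5 and at 6.97 CPM (467 cells) at E17.5. *Grem1* held 6 UMIs in the 840 chondrocyte-like cells of E15.5.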
